A study of Mus musculus with 6 samples.

Results

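The genes described here encode the enzymes that write and erase methyl groups on histones. They were chosen by name, as 43 of the 21887 mouse protein-coding genes, by a rule that uses no measured value. Earlier results of these data were known when the choice was made. The 43 comprise 19 genes of the JmjC demethylase family, 2 amine oxidase demethylase genes and 22 methyltransferase genes. CUT&Tag, which tethers a transposase to an antibody on chromatin so that DNA beside the antibody's target is cut and sequenced, was applied to group 2 innate lymphoid cells (ILC2s) of mouse colon. All cells were grown with 4 cytokines, the alarmins IL-25 and IL-33 and the growth factors IL-2 and IL-7. The FK866 plus succinate group received the NAMPT inhibitor FK866 together with succinate, the FK866 group received the inhibitor alone, and the Control group is labelled only as Control. Each group had 2 libraries. No source used here names the mouse strain, the doses, the times or the target of the antibody. A peak therefore stands for DNA near a target without a name. Nothing states whether the 2 libraries of a group came from separate cultures or animals, so every p-value measures only the spread between these libraries.

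Histone methylation is laid down by SET-domain enzymes and by DOT1L, which take the methyl group from S-adenosylmethionine. It is removed by 2 enzyme families. The LSD family uses flavin, and the JmjC family uses iron, oxygen and 2-oxoglutarate and releases succinate, so that accumulated succinate can inhibit JmjC enzymes. FK866 blocks the enzyme that recycles nicotinamide into NAD, a cofactor of central metabolism. These are properties of the enzymes, whereas the peaks measured here lie on the genes that encode them, and neither enzyme amount, enzyme activity nor histone methylation was measured.

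For each gene the length covered by peaks was summed over its span plus 2 kb on either side, in mm10 coordinates. The 43 genes were occupied in every library. All 43 carried at least 1 peak in each of the 6 libraries, as did 88.2% of the 15891 protein-coding genes with any peak. The mean covered length had a median of 3594 bp over the 43 genes and 1970 bp over all those genes, and the intervals themselves were longer, with medians of 69.0 kb and 26.0 kb. Each gene's strongest site was ranked by its −log10 p among all peaks of its library. Averaged over libraries that percentile had a median of 88.1 over the 43 genes, from 78.2 for Suv39h1 to 99.4 for Kdm4a, beside 85.1 over all genes with a peak. The distance from the strongest site to the nearer gene end was 2 kb or less at 37 of the 43 genes, or 86.0%, beside 84.4% of all genes with a peak.

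RefSeq promoter sequences, in GRCm38.p6, whose chromosomes are those of mm10, were at hand for 31 of the 43 genes, and each runs from 250 bases before to 50 bases after an annotated start. A peak covered at least 1 annotated start in all 6 libraries at 29 of these 31 genes, or 93.5%. Among all genes with both a peak and an annotated start the share was 74.9%, so genes without any peak are left out of it. The exceptions were Phf2, with its start in a peak in 4 libraries, and Kmt2d, in 5. The promoters held a median of 28 CpG dinucleotides, against 13 over the 21263 promoters of protein-coding genes. The 21263 include promoters of genes without any peak. A peak covered the start in all 6 libraries at 87.8% of the 41 promoters of these genes and at 52.3% of the 21263. No comparison matched for peaks was made, here or for the motifs below. The first set of sequences belongs to some of the 6 JmjC genes whose covered length was lower in both FK866 plus succinate libraries than in both FK866 libraries. Jmjd1c and Kdm8, which also met this, are not shown. Capitals mark matches on either strand to GGGCGG (the GC box), CCGGAAG (an ETS motif), CCAAT (the motif of factor NFY), GCATGCG (an NRF1 core), CACGTG (an E-box) or GATAAG (a motif of GATA factors), and matches of different motifs may overlap. The sequences are Kdm5c (chrX:152232977-152233276, plus strand), Kdm6a (chrX:18162325-18162624, plus strand), Jmjd6 (chr11:116843400-116843699, minus strand) and Kdm4d (chr9:14500433-14500732, minus strand).
Kdm5c: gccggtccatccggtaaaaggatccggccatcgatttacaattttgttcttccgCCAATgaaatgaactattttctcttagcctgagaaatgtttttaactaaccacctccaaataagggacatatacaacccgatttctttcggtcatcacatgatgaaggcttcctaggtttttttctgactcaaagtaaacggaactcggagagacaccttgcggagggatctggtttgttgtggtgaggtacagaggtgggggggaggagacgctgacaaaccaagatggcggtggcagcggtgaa
Kdm6a: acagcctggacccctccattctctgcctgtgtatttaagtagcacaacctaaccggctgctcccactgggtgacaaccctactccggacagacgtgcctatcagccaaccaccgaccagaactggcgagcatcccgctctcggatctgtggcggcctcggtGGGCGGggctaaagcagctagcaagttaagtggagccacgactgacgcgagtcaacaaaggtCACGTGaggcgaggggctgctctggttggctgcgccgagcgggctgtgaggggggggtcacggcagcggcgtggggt
Jmjd6: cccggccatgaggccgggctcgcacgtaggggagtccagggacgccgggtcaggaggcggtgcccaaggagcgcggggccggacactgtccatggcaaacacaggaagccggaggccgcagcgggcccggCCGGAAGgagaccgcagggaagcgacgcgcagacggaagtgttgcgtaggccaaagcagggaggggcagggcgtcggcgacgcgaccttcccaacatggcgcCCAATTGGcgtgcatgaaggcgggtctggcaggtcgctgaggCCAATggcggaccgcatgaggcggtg
Kdm4d: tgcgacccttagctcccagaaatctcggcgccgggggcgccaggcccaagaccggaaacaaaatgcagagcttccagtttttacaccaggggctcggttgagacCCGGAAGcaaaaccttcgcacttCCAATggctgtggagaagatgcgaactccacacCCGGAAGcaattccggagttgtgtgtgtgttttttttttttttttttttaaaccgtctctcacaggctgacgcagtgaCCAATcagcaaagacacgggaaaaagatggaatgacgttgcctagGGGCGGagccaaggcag

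The second set shows the starts under the steadiest, the tallest and the broadest of the strongest peaks, with Ezh2 as the partner of Ezh1. They are Kdm5b (chr1:134559928-134560227, plus strand), whose peak width varied least, Ezh1 (chr11:101226414-101226713, minus strand), with the highest fold enrichment, Kmt2a (chr9:44881240-44881539, minus strand), with the widest peak, and Ezh2 (chr6:47594981-47595280, minus strand).
Kdm5b: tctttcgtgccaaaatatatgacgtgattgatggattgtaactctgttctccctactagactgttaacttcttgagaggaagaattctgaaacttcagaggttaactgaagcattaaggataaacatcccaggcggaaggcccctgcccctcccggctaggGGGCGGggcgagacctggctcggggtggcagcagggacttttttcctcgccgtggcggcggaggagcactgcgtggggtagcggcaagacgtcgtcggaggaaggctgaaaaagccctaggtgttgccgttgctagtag
Ezh1: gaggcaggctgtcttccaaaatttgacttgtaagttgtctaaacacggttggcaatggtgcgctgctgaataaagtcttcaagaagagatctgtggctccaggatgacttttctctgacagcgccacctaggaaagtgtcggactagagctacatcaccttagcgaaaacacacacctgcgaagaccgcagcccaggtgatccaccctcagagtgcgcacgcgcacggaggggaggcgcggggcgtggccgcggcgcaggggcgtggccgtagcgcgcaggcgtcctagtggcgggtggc
Kmt2a: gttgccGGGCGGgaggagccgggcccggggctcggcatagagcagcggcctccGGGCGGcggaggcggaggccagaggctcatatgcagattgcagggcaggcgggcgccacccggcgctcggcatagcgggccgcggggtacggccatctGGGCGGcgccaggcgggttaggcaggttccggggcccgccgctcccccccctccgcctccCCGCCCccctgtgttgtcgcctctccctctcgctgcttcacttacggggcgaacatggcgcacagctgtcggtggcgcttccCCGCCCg
Ezh2: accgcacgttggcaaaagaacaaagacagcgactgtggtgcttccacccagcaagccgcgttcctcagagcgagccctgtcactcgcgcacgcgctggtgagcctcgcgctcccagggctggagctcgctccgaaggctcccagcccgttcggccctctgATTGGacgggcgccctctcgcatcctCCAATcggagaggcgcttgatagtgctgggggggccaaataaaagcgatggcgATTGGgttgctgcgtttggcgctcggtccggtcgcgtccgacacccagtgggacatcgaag

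The Kmt2a window held 36 CpG and the Kdm5c window 13. The GC box was present in 29 of the 41 promoters of these genes, or 70.7%, and in 46.2% of all promoters. The ETS motif was present in 14.6% and 11.6%, CCAAT in 36.6% and 38.2%, the E-box in 9.76% and 7.84%, and GATAAG in 2.44% and 6.92%. GCATGCG was in none of the 41, beside 4.44% of all promoters. No motif searched was found in the Ezh1 window. A match or its lack describes these letters only.

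The strongest peaks differed mainly in shape, from tall and narrow to low and broad. Their width averaged over libraries ran from 1250 bp to 3573 bp with a median of 2073 bp, and the deposited fold enrichment at the summit from 3.44 to 12.6 with a median of 7.18. Across the 43 genes broader peaks had lower folds (Spearman's rho −0.79, Pearson's r −0.77, values that share the same libraries and peak calls). Ezh1, an H3K27 methyltransferase, and Nsd3, an H3K36 methyltransferase, had the tallest peaks, with mean folds of 12.6 and 12.1 over widths of 1373 bp and 1250 bp. The Nsd3 summit lay 566 bp from an end of the gene, with an end of Plpp5 within 2 kb, so this peak cannot be assigned to 1 of the 2 genes. Beside cases named below, this also holds at Kdm5a (Ccdc77), Kdm5b (Mgat4e), Kmt2b (Zbtb32), Suv39h2 (Dclre1c), Nsd2 (Gm52782), Ash1l (Dap3) and Setd3 (Ccnk). At each, an end of the gene in brackets lay within 2 kb of the strongest summit. The broadest peaks belonged to Kmt2a, an H3K4 methyltransferase of the MLL family, at 3573 bp and a mean fold of 4.45, to Kdm6b, an H3K27 demethylase, at 3543 bp and 3.44, and to Kmt2e, a SET-domain gene without established activity on histones, at 3540 bp and 4.01.

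**Figure D1:**
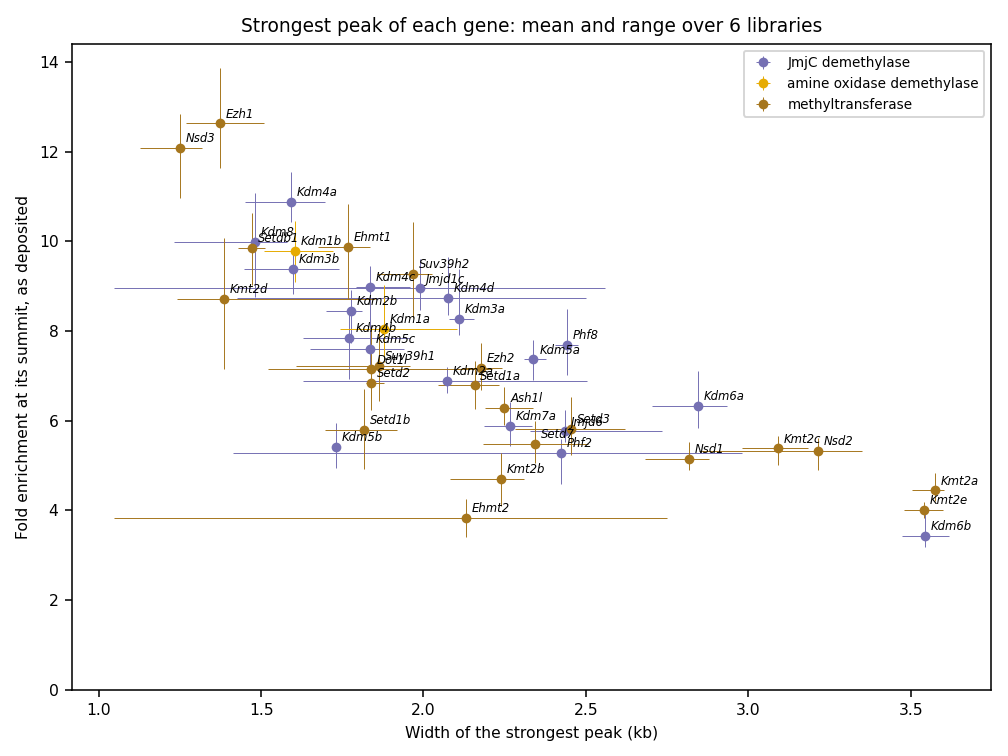
Width (kb, x axis) against the deposited fold enrichment (y axis) of the strongest peak of each of the 43 genes; points are means and lines the range over the 6 libraries, with JmjC demethylase genes in purple, amine oxidase demethylase genes in yellow and methyltransferase genes in brown. Kmt2a, Kmt2e and Kdm6b lie at the lower right, with mean widths of 3573, 3540 and 3543 bp, and Ezh1 and Nsd3 at the upper left.

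The width of a gene's strongest peak varied to different extents between libraries. In 20 of the 43 genes the widest of the 6 values was within 1.1 times the narrowest. At Kdm5b, an H3K4 demethylase, the width was 1733 and 1733 bp with FK866 plus succinate, 1725 and 1728 bp with FK866, and 1733 and 1730 bp in Control, a range of 8 bp. At 5 genes the width varied by over 1.5 times (Jmjd1c, Kdm2a, Kdm4d, Phf2 and Ehmt2). At Ehmt2, which encodes the H3K9 methyltransferase G9a, it was 2492 and 1048 bp with FK866 plus succinate, 2751 and 1211 bp with FK866, and 2626 and 2657 bp in Control, so that the split into narrow and wide fell within groups as much as between them.

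The JmjC genes spanned almost the whole range of covered length. The H3K36 demethylase gene Kdm2b was the most covered of them, with 9886 and 11193 bp in FK866 plus succinate libraries, 9299 and 9087 bp in FK866 libraries, and 13016 and 9134 bp in Control libraries. Its strongest site was not at the outer start but 29463 bp inside the gene, 223 bp from an annotated internal start; such an internal start is known to yield a short form without the JmjC domain, and both the outer and the internal starts lay in a peak in all 6 libraries. Kdm2a, its paralogue, likewise had its strongest site 16760 bp inside the gene, and had 6417 and 7083 bp with FK866 plus succinate, 5960 and 6922 bp with FK866, and 7580 and 5168 bp in Control. The groups overlapped for both genes in the comparison of FK866 with Control.

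Kdm6a and Kdm6b, which remove methyl groups from H3K27, differed in form but showed no separation of all 3 groups. Kdm6b was one of the most densely covered genes, with peaks over 29.6% of its interval and its strongest site 10359 bp inside the gene. That interval also overlaps the coding genes Naa38, Tmem88 and Dnah2, so its cover may not be of Kdm6b alone. Kdm6b had 7870 and 7038 bp with FK866 plus succinate, 7629 and 7806 bp with FK866, and 7719 and 7841 bp in Control, and the 3 groups overlapped. Kdm6a, on the X chromosome, had 2 peaks in every library, covering 3510 and 3448 bp with FK866 plus succinate, 3633 and 3876 bp with FK866, and 3707 and 3390 bp in Control. Its FK866 plus succinate libraries lay below its FK866 libraries and within the range of Control.

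Among the H3K4 demethylase genes, the 3 groups of Kdm5c did not overlap. It carried a single peak in every library, over its start, and that peak covered 1650 and 1686 bp with FK866 plus succinate, 1909 and 1891 bp with FK866, and 1941 and 1940 bp in Control. The FK866 plus succinate libraries lay below all 4 others, and the FK866 libraries just below Control. The fitted log2 change was −0.17 ± 0.08 (SE) for FK866 plus succinate over FK866 and −0.20 ± 0.08 over Control, with limma adjusted p of 0.603 and 0.555, so neither passed the test. Kdm5a had 2308 and 3613 bp with FK866 plus succinate, 2839 and 2349 bp with FK866, and 2790 and 2354 bp in Control, with overlapping groups. Kdm5b, the least covered JmjC gene, had 1733 and 2018 bp with FK866 plus succinate, 1725 and 1728 bp with FK866, and 1733 and 1730 bp in Control. The higher value came from a second peak in 1 library.

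The Kdm4 genes, whose products act on H3K9 and, for some but not Kdm4d, on H3K36, held the JmjC family's largest fitted difference in each comparison. Kdm4a had 4361 and 5811 bp with FK866 plus succinate, 3659 and 2891 bp with FK866, and 3930 and 3077 bp in Control, so the FK866 plus succinate libraries lay above all others (log2 change 0.60 ± 0.21 over FK866, limma adjusted p = 0.535; 0.51 ± 0.21 over Control, adjusted p = 0.587). That excess lay in weaker peaks of the gene body. The strongest peak of Kdm4a was narrower, with 1555 and 1450 bp against 1698 and 1624 bp with FK866 and 1618 and 1602 bp in Control. With only peaks whose deposited adjusted p was under 0.05, the log2 change was −0.09 over FK866 and −0.17 over Control, and the change over Control was 0.31 without FK866 plus succinate replicate 2. Kdm4d had 1893 and 2190 bp with FK866 plus succinate, 2877 and 2915 bp with FK866, and 2296 and 2192 bp in Control. Its FK866 libraries lay above all 4 others (log2 change 0.34 ± 0.10 over Control, limma adjusted p = 0.850), and FK866 plus succinate lay below FK866 by a log2 change of −0.47 ± 0.10 (adjusted p = 0.395). With only peaks of adjusted p under 0.05 these were 0.14 and −0.27. The strongest peak of Kdm4d lies between it and Cwc15, whose end is within 2 kb, so it cannot be assigned to 1 of the 2 genes. Kdm4b had 9512 and 7112 bp with FK866 plus succinate, 7009 and 6265 bp with FK866, and 7192 and 6312 bp in Control. Kdm4c, with 1 peak in every library, ranged from 1793 to 1959 bp.

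The H3K9 demethylase gene Jmjd1c was the second most covered JmjC gene, with 7286 and 7759 bp with FK866 plus succinate, 9027 and 9320 bp with FK866, and 9409 and 7759 bp in Control (log2 change −0.28 ± 0.12 for FK866 plus succinate over FK866, limma adjusted p = 0.594). Its strongest site lay 70511 bp from the nearest end of the gene and 65 bp from an internal annotated start. Kdm3a ranged from 2086 to 2504 bp and Kdm3b from 3320 to 4381 bp over the 6 libraries, with overlap in each comparison. Of the PHF-type genes, whose products bind H3K4me3 beside demethylating H3K9 or related sites, Phf8 held a single peak of 2404 to 2477 bp in every library. Phf2 had 6495 and 7608 bp with FK866 plus succinate, 6626 and 5382 bp with FK866, and 8351 and 6860 bp in Control, and its FK866 libraries lay below its Control libraries (log2 change −0.33 ± 0.17, limma adjusted p = 1; −0.19 without FK866 replicate 2, −0.19 without Control replicate 1, and 0.37 with only peaks of adjusted p under 0.05). Kdm7a was at 2186 to 2333 bp in 5 libraries and at 2929 bp in FK866 plus succinate replicate 2. Jmjd6, whose product hydroxylates lysine and has a debated role as a demethylase, had 2354 and 2329 bp with FK866 plus succinate, 3133 and 2793 bp with FK866, and 2733 and 2801 bp in Control. Both FK866 plus succinate values were below the other 4, with a log2 change of −0.31 ± 0.09 over FK866 (adjusted p = 0.456), and an end of Mettl23 is within 2 kb of that strongest peak. Kdm8 had 2323 and 2561 bp with FK866 plus succinate, 2568 and 2804 bp with FK866, and 2418 and 3304 bp in Control.

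The flavin-dependent pair are independent of 2-oxoglutarate. Kdm1a (LSD1), which removes methyl groups from H3K4, carried 3 peaks in every library, covering 2788 and 3963 bp with FK866 plus succinate, 3431 and 3019 bp with FK866, and 3647 and 2851 bp in Control. Its groups overlapped. Kdm1b (LSD2) had 2076 and 2606 bp with FK866 plus succinate, 1614 and 1983 bp with FK866, and 1915 and 2669 bp in Control (log2 change 0.34 ± 0.21 for FK866 plus succinate over FK866, limma adjusted p = 0.691). That value was 0.19 without FK866 plus succinate replicate 2, 0.21 without FK866 replicate 1, −0.01 with the 6 peak lists cut to equal length and −0.12 with only peaks of adjusted p under 0.05. Tpmt ends within 2 kb of the strongest Kdm1b peak.

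**Figure D2:**
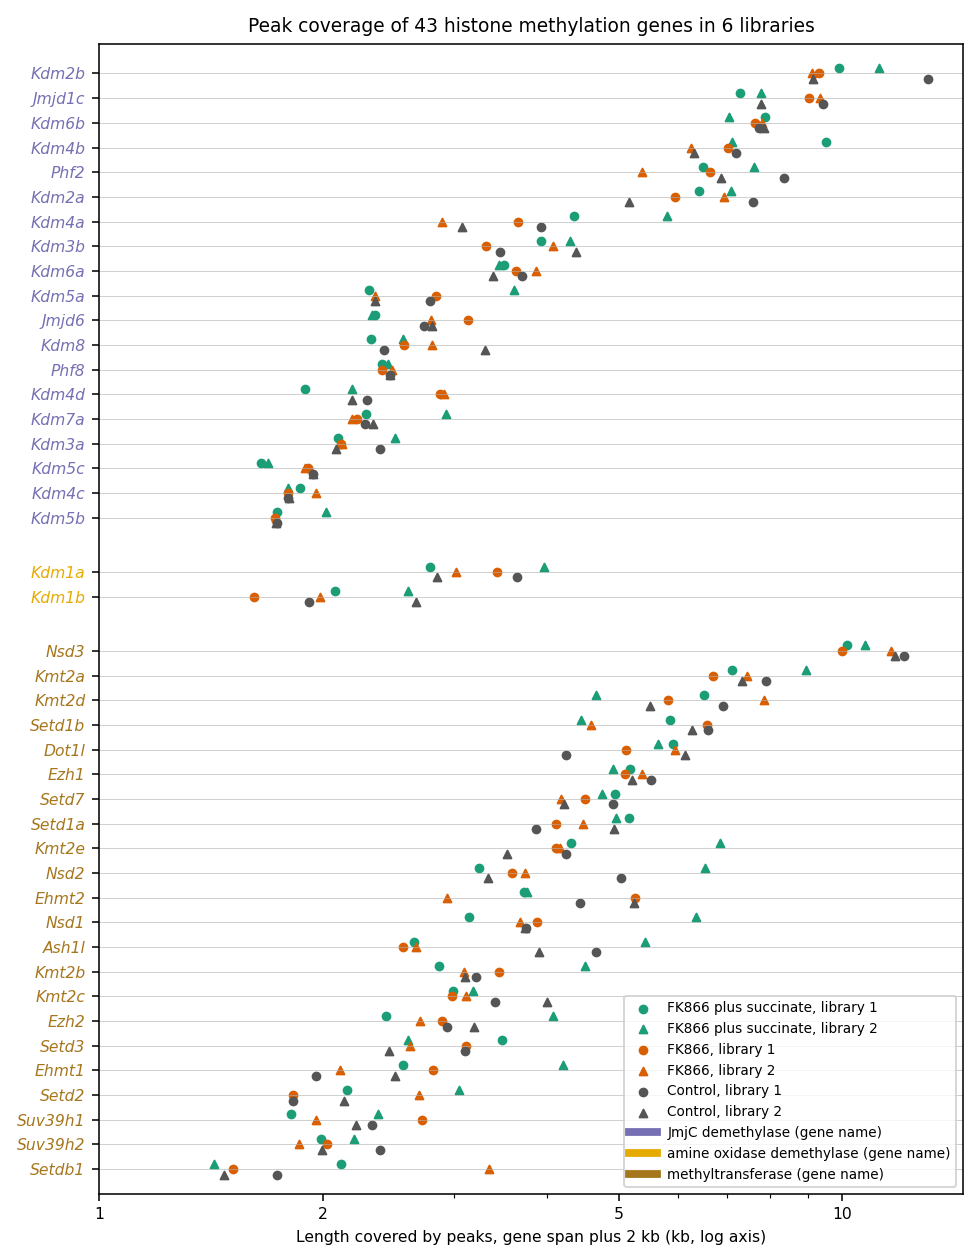
Length covered by peaks (kb, log axis) over each gene's span plus 2 kb; each gene has 6 points, 2 libraries (circle, triangle) of FK866 plus succinate (green), FK866 (orange) and Control (grey), and gene names are coloured by class. The points of most genes mingle; Kdm5c, Jmjd6 and Kdm4d have both FK866 plus succinate points left of both FK866 points, and Kdm4a has them on the right.

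The H3K4 methyltransferase genes of the MLL and SET1 families were covered at 2869 to 8939 bp. Kmt2a, the most covered, had 7103 and 8939 bp with FK866 plus succinate, 6688 and 7436 bp with FK866, and 7896 and 7318 bp in Control, with overlapping groups. Kmt2d had 6516 and 4667 bp with FK866 plus succinate, 5833 and 7854 bp with FK866, and 6916 and 5504 bp in Control, also overlapping. Its strongest peak lay 40101 bp downstream of its start, at its far end, where the AMPK subunit gene Prkag1 is within 2 kb, and not at its own promoter. Kmt2c had 2993 and 3185 bp with FK866 plus succinate, 2981 and 3115 bp with FK866, and 3404 and 4005 bp in Control. Both inhibitor-treated groups lay below Control there, with log2 changes of −0.24 ± 0.11 for FK866 plus succinate (limma adjusted p = 0.596) and −0.26 ± 0.11 for FK866 (adjusted p = 0.977). The FK866 value was −0.15 without Control replicate 2 and −0.10 with only peaks of adjusted p under 0.05. Kmt2b had 2869 and 4502 bp with FK866 plus succinate, 3453 and 3100 bp with FK866, and 3215 and 3102 bp in Control.

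Setd1b had 5855 and 4444 bp with FK866 plus succinate, 6575 and 4584 bp with FK866, and 6602 and 6278 bp in Control, so that FK866 plus succinate lay below Control (log2 change −0.32 ± 0.22, limma adjusted p = 0.750). Its strongest site lay 8011 bp inside the gene. Its relative Setd1a had 5161 and 4959 bp with FK866 plus succinate, 4122 and 4479 bp with FK866, and 3870 and 4922 bp in Control (0.20 ± 0.13 over Control, adjusted p = 0.742). Setd7, an H3K4 monomethyltransferase, had 4942 and 4756 bp with FK866 plus succinate, 4506 and 4187 bp with FK866, and 4913 and 4224 bp in Control. Kmt2e had 4315 and 6845 bp with FK866 plus succinate, 4114 and 4172 bp with FK866, and 4246 and 3543 bp in Control, with log2 changes of 0.38 ± 0.23 over FK866 (adjusted p = 0.698) and 0.47 ± 0.23 over Control (adjusted p = 0.649). Most of that excess was in FK866 plus succinate replicate 2, without which the changes were 0.06 and 0.15, and without replicate 1 they were 0.70 and 0.79. With only peaks of adjusted p under 0.05 they were 0.12 and 0.17. Setd3, an actin histidine methyltransferase in mammals, ranged from 2454 to 3485 bp.

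The catalytic subunits of Polycomb repressive complex 2, which methylates H3K27, are EZH1 and EZH2. Ezh1 had 5184 and 4906 bp with FK866 plus succinate, 5097 and 5374 bp with FK866, and 5535 and 5217 bp in Control. Ezh2 had 2435 and 4079 bp with FK866 plus succinate, 2894 and 2699 bp with FK866, and 2940 and 3190 bp in Control. The 2 FK866 plus succinate libraries of Ezh2 differed more from each other than the groups did, and its strongest peak was 2118 to 2241 bp wide in all 6 libraries. Adjusted p for FK866 over Control was 1 for both genes in limma.

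Of the H3K9 methyltransferase genes, Ehmt2 was the most covered, with 3728 and 3768 bp with FK866 plus succinate, 5265 and 2935 bp with FK866, and 4441 and 5242 bp in Control. Its FK866 plus succinate libraries lay below Control (log2 change −0.35 ± 0.28, limma adjusted p = 0.791; −0.22 with only peaks of adjusted p under 0.05). Its partner Ehmt1 (GLP) had 2560 and 4207 bp with FK866 plus succinate, 2812 and 2109 bp with FK866, and 1957 and 2504 bp in Control, above Control by 0.53 ± 0.28 (adjusted p = 0.669). That value was 0.87 without FK866 plus succinate replicate 1, 0.19 without its replicate 2, and 0.13 with only peaks of adjusted p under 0.05. The strongest Ehmt1 peak differed from Control by −0.65 percentage points of its 4-kb window, so the excess lay elsewhere in its interval. Setdb1, the least covered, had 2119 and 1430 bp with FK866 plus succinate, 1513 and 3343 bp with FK866, and 1735 and 1472 bp in Control. Suv39h1 ranged from 1812 to 2722 bp and Suv39h2 from 1856 to 2384 bp, with overlapping groups in each comparison.

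Among H3K36 methyltransferase genes Nsd3 was the most covered of all 43, with 10128 and 10709 bp with FK866 plus succinate, 9998 and 11605 bp with FK866, and 12089 and 11775 bp in Control. Both inhibitor-treated groups lay below Control, by −0.19 ± 0.11 for FK866 plus succinate (limma adjusted p = 0.687) and −0.14 ± 0.11 for FK866 (adjusted p = 1). Setd2, which trimethylates H3K36 and was the least covered of the 5, had 2157 and 3049 bp with FK866 plus succinate, 1822 and 2698 bp with FK866, and 1825 and 2136 bp in Control. Ash1l had the largest fitted difference of any of the 43 between FK866 and Control, at −0.67 ± 0.34 (adjusted p = 1). It had 2656 and 5430 bp with FK866 plus succinate, 2564 and 2666 bp with FK866, and 4655 and 3906 bp in Control, so the FK866 libraries lay below Control and the FK866 plus succinate libraries spanned both. At its strongest peak, near an end of Dap3, the FK866 libraries were 2239 and 2336 bp wide and the Control libraries 2277 and 2250 bp. Nsd1 had 3145 and 6354 bp with FK866 plus succinate, 3885 and 3688 bp with FK866, and 3747 and 3736 bp in Control. Nsd2 had 3248 and 6528 bp with FK866 plus succinate, 3596 and 3742 bp with FK866, and 5035 and 3332 bp in Control. For Nsd1, Nsd2 and Ash1l the highest value of the 6 was FK866 plus succinate replicate 2. Dot1l, the H3K79 methyltransferase gene, had 5924 and 5654 bp with FK866 plus succinate, 5123 and 5952 bp with FK866, and 4253 and 6134 bp in Control.

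None of the 43 genes passed the test in any comparison. Limma, fitted to the log2 of covered length plus 200 bp over the 15362 genes covered in at least 2 libraries, called 0 genes at a Benjamini-Hochberg adjusted p under 0.05 for FK866 over Control (0.0%), 0 for FK866 plus succinate over FK866 (0.0%) and 0 for FK866 plus succinate over Control (0.0%). At an unadjusted p under 0.05 it gave 820, 1360 and 1382 of all genes in that order of comparisons, and 1, 3 and 1 of the 43. The genes behind those counts were Kdm4d in the first comparison, Kdm4d, Jmjd6 and Kdm4a in the second, and Kdm5c in the third.

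For FK866 over Control the median log2 change was −0.02 over the 43 genes and −0.03 over all genes, with −0.01 for the JmjC genes and −0.03 for the methyltransferase genes. The median of the 43 was above 0 with quantile normalization (0.02), with only peaks of adjusted p under 0.05 (0.02) and without Control replicate 1 (0.00900). Both FK866 libraries lay above both Control libraries for 1 gene, Kdm4d, beside 12.8% of all genes. They lay below for 8 genes, beside 19.9% of all genes. These 8 were the demethylase genes Phf2, Kdm7a, Kdm5c and Kdm5b and the methyltransferase genes Ash1l, Kmt2c, Nsd3 and Ezh2. The smallest of these differences was at Kdm5b, which averaged 1727 ± 2.12 bp with FK866 and 1732 ± 2.12 bp in Control (SD, n = 2 each).

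For FK866 plus succinate over FK866 the median log2 change was 0.10 over the 43 genes and −0.01 over all genes, with 0.07 for the JmjC genes and 0.11 for the methyltransferase genes. Without FK866 plus succinate replicate 2, the library with the most peaks, the median of the 43 genes was −0.01. The libraries lay apart upward for 9 genes (Kdm4a, Kmt2e, Kdm1b, Kdm4b, Setd1a, Kdm7a, Kdm2b, Setd7 and Kdm5b), beside 17.9% of all genes. They lay apart downward for 6 genes, beside 21.8% of all genes, and those 6 were all JmjC genes (Kdm4d, Jmjd6, Jmjd1c, Kdm5c, Kdm8 and Kdm6a). Of the 9, 5 were among the 19 JmjC genes, 3 among the 22 methyltransferase genes and 1 was an amine oxidase gene. At the strongest site, given below, the share of genes that were lower was no larger for JmjC than for methyltransferase genes. Without replicate 2 the counts were 11 and 14, beside 29.5% and 40.9% of all genes, and these were not split by class.

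For FK866 plus succinate over Control, which shares its libraries with both other comparisons, the median log2 change was 0.04 over the 43 genes and −0.03 over all genes, with −0.02 for the JmjC genes and 0.08 for the methyltransferase genes. Without FK866 plus succinate replicate 2 the median of the 43 was −0.10. The libraries lay apart upward for 5 genes (Ehmt1, Kdm4a, Kmt2e, Setd2 and Setd1a), beside 13.4% of all genes, and downward for 9 genes (Ehmt2, Setd1b, Kmt2c, Jmjd6, Kdm5c, Nsd3, Kdm4d, Ezh1 and Phf8), beside 24.5%. Without replicate 2 the counts were 11 and 22, beside 24.2% and 44.6% of all genes.

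**Figure D3:**
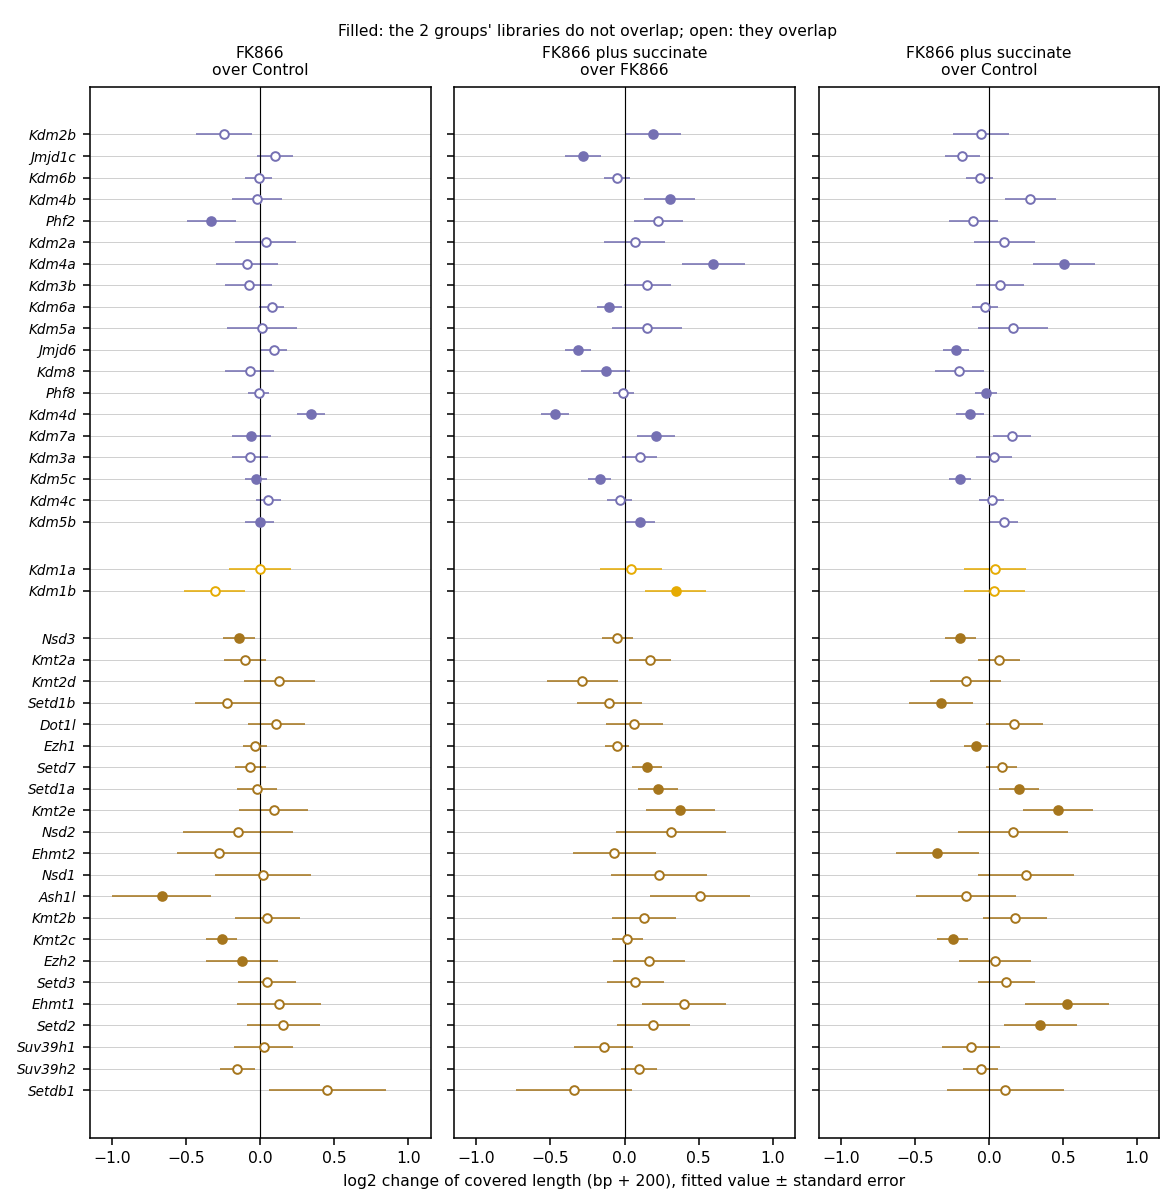
Fitted log2 change of covered length (x axis, with standard error) of each of the 43 genes in the 3 comparisons; JmjC demethylase genes in purple, amine oxidase demethylase genes in yellow, methyltransferase genes in brown, filled where the 2 groups' libraries do not overlap. Changes lie between −0.67 (Ash1l, FK866 over Control) and 0.60 (Kdm4a, FK866 plus succinate over FK866), and none passed the limma test.

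The 19 JmjC genes were covered over a shorter length in sum than the 22 methyltransferase genes in every library. These sums run over unequal numbers of genes, so they do not compare the cover per gene. The summed covered length of the 19 JmjC genes was 80.2 and 85.4 kb with FK866 plus succinate, 79.8 and 78.9 kb with FK866, and 87.2 and 76.9 kb in Control. For the 22 methyltransferase genes it was 90.3 and 106 kb with FK866 plus succinate, 90.7 and 92.2 kb with FK866, and 97.1 and 94.2 kb in Control. The ratio within a library was 0.888 and 0.809 with FK866 plus succinate, 0.879 and 0.855 with FK866, and 0.898 and 0.817 in Control. The ratios overlapped between groups in each comparison, whereas the JmjC sums with FK866 plus succinate lay above those with FK866 and the methyltransferase sums with FK866 below those in Control. The ratio of FK866 differed from Control by 0.0100 (exact permutation test, two-sided, p = 1), FK866 plus succinate from FK866 by −0.0190 (p = 1) and from Control by −0.00901 (p = 0.667). The smallest p that 2 libraries against 2 allow is 0.333, so this test could not pass a threshold of 0.05. The sign turned when FK866 replicate 1 (−0.00190) or Control replicate 2 (−0.0308) was left out of the first, when FK866 plus succinate replicate 2 (0.0203) was left out of the second, and when FK866 plus succinate replicate 2 (0.0304) or Control replicate 1 (0.0318) was left out of the third.

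At the strongest site itself, peak cover with FK866 plus succinate was below that with FK866 at most of the 43 genes and by a like amount at all genes. The share of a 4-kb window centred on the strongest summit that peaks covered was averaged over libraries for each gene. Its median was 53.6% over the 43 genes and 37.6% over all genes with a peak. FK866 plus succinate differed from FK866 by a median of −1.51 percentage points over the 43 genes, lower at 30 of them or 69.8%, and by −1.51 points over all 15168 genes, lower at 70.6%. It was lower at 13 of the 19 JmjC genes (68.4%, median −1.24 points) and at 16 of the 22 methyltransferase genes (72.7%, median −2.1 points). Against Control the medians were −1.28 points over the 43 genes and −1.54 over all genes. FK866 differed from Control by 0.44 and −0.05 points in that order. Setd3 (−7.06 points), Kdm5c (−5.80), Kdm4d (−11.4) and Setd1a (−3.95) were among the 8 genes with an unadjusted p under 0.05 for FK866 plus succinate over FK866, or 18.6% beside 13.4% of all genes. There were 4 such genes for FK866 plus succinate over Control, or 9.30% beside 13.9%, and for FK866 over Control 1, or 2.33% beside 5.08%. The lowest limma adjusted p among the 43 was 0.131, at Kdm5c for FK866 plus succinate over Control, so none passed.

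The presence of peaks was also compared in merged regions. Peaks of the 6 libraries were merged into regions, and 424 regions touched the 43 genes or their 2-kb flanks. Of these, 80 held a peak in all 6 libraries (18.9%, beside 24.7% of the 72732 regions at protein-coding genes), and 225 in only 1 library (53.1%, beside 47.1%). FK866 plus succinate replicate 2 alone supplied 83 of the 225. A region was called lost where both libraries of the group named second had a peak and neither of the first did, and gained in the reverse case. FK866 over Control gave 5 lost regions (1.18%, beside 1.96% of all such regions) and 6 gained (1.42%, beside 1.41%). FK866 plus succinate over FK866 gave 9 lost (2.12%, beside 1.70%) and 18 gained (4.25%, beside 2.62%), and over Control 4 lost (0.943%, beside 2.06%) and 9 gained (2.12%, beside 2.40%).

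Leaving out 1 library loosens these calls, at all protein-coding genes as at the 43, and the second percentage of each pair is the share of all 72732 regions. Regions lost with FK866 over Control became 12 without FK866 replicate 1 (2.83%, beside 3.70%), 8 without FK866 replicate 2 (1.89%, beside 3.35%), 38 without Control replicate 1 (8.96%, beside 8.34%) and 67 without Control replicate 2 (15.8%, beside 15.0%). Regions gained became 39 without FK866 replicate 1 (9.20%, beside 9.78%), 34 without FK866 replicate 2 (8.02%, beside 7.01%), 12 without Control replicate 1 (2.83%, beside 2.88%) and 13 without Control replicate 2 (3.07%, beside 2.49%). The lost regions for FK866 plus succinate over FK866 became 16 without FK866 plus succinate replicate 1 (3.77%, beside 3.30%), 16 without its replicate 2 (3.77%, beside 3.37%), 42 without FK866 replicate 1 (9.91%, beside 9.99%) and 35 without FK866 replicate 2 (8.25%, beside 7.38%). The gained regions became 116 without FK866 plus succinate replicate 1 (27.4%, beside 20.9%) and 59 without its replicate 2 (13.9%, beside 11.9%). The lost regions for FK866 plus succinate over Control became 9 without FK866 plus succinate replicate 1 (2.12%, beside 3.82%), 11 without its replicate 2 (2.59%, beside 3.95%), 41 without Control replicate 1 (9.67%, beside 8.01%) and 48 without Control replicate 2 (11.3%, beside 14.0%). The gained regions became 101 without FK866 plus succinate replicate 1 (23.8%, beside 19.7%), 49 without its replicate 2 (11.6%, beside 11.1%) and 18 without Control replicate 1 (4.25%, beside 4.17%).

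The lost or gained regions came to 36 distinct ones at 19 of the genes, 18 at JmjC genes and 18 at methyltransferase genes. They lay 6.89 to 97.9 kb from the gene's strongest site, and their best peak reached at most the 63.7th percentile of its library. The strongest sites averaged between 78.2 and 99.4. Those sites were chosen for their rank and held a peak in every library, so none could be lost or gained. The contrast was thus partly set by the choice, and the strength of unchanged regions was not compared. In Ash1l a region of 897 bp (chr3:89047540-89048436) held 454 and 641 bp of peak with FK866 plus succinate, 0 and 0 bp with FK866, and 820 and 796 bp in Control. In Kdm4a a region of 840 bp (chr4:118161278-118162117) held 472 and 572 bp with FK866 plus succinate, 0 and 0 bp with FK866, and 370 and 318 bp in Control. These 2 regions were free of peaks only in the FK866 libraries.

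Others had peaks only in FK866 libraries. In Kdm4d a region of 542 bp (chr9:14493569-14494110) held 0 and 0 bp with FK866 plus succinate, 380 and 414 bp with FK866, and 0 and 0 bp in Control. In Dot1l a region of 783 bp (chr10:80787569-80788351) held 0 and 0 bp with FK866 plus succinate, 594 and 539 bp with FK866, and 0 and 0 bp in Control. Another in Kdm4b spanned 431 bp. Regions of 500 bp or more with peaks only in FK866 plus succinate libraries included 578 bp in Kdm4a (550 and 385 bp), 711 bp in Kdm2a (581 and 711 bp) and 682 bp in Kdm4b (591 and 461 bp). Peaks only in Control libraries were those of 831 bp in Kmt2d (521 and 398 bp) and 397 bp in Phf2 (397 and 271 bp).

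The remaining regions of 500 bp or more were mixed, and most had peaks in 1 library of the group outside the comparison. Kdm2b gained 3 regions of 606 to 731 bp with FK866 plus succinate over FK866, each also present in 1 Control library, and Kdm2a gained 2 and Kdm4b, Kmt2e and Setd7 gained 1 of that kind. With FK866 over Control, Kdm2b, Kmt2a and Phf2 gained 1 region each, of 832, 592 and 1093 bp, with a peak in 1 FK866 plus succinate library. With FK866 plus succinate over FK866, Nsd3 lost 2, of 1068 and 834 bp, and Kmt2d, Kdm4b and Jmjd6 lost 1 each. All of these had a peak in 1 Control library. A region of 802 bp in the flank of Ezh1 was lost with FK866 over Control and held a peak in FK866 plus succinate replicate 2. A region of 537 bp in Setd3 held peaks in both FK866 plus succinate libraries, in FK866 replicate 1 and in neither Control library. In the flank of Nsd2 a region of 637 bp held peaks only in the FK866 plus succinate libraries (401 and 271 bp). At Kmt2a and Ezh1 regions of 1411 and 1016 bp held peaks in both Control libraries, in FK866 replicate 1 and in neither FK866 plus succinate library.

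**Figure D4:**
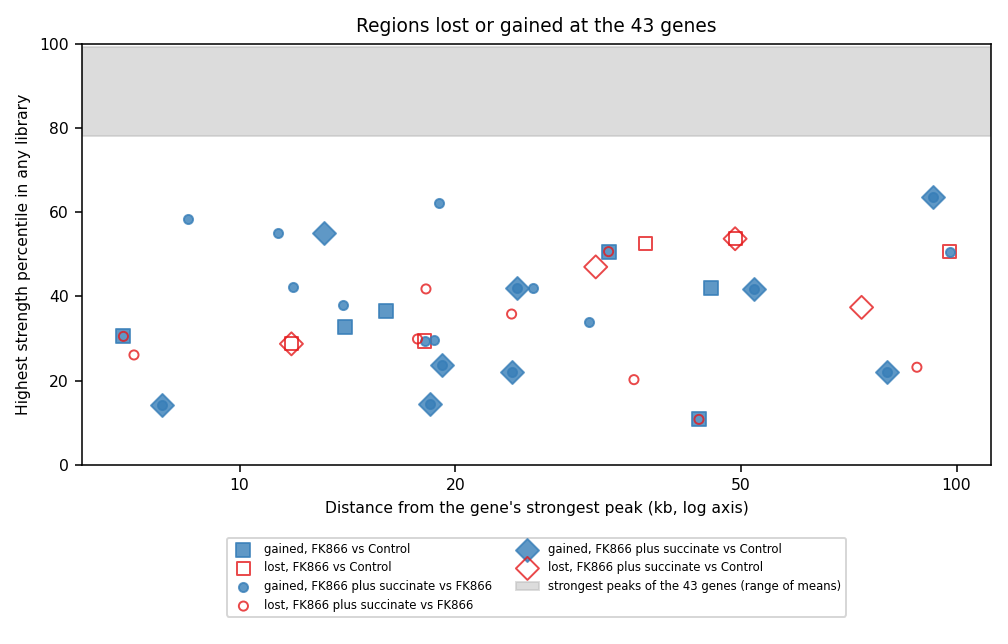
Regions lost (open red) or gained (filled blue) at the 43 genes, by distance from the gene's strongest site (kb, log axis) and highest strength percentile in any library; squares are FK866 over Control, circles FK866 plus succinate over FK866, diamonds FK866 plus succinate over Control. All points lie at or below 63.7, under the grey band of the strongest sites, which starts at 78.2. Those sites were chosen for their rank.

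Further genes of histone methylation were occupied as evenly as the 43 in number of libraries. Of 66 partners and related enzymes, all 66 were covered in all 6 libraries, and limma called 0 in each comparison. At an unadjusted p under 0.05 there were 4 for FK866 over Control (6.06%, beside 5.34% of all genes), 3 for FK866 plus succinate over FK866 (4.55%, beside 8.85%) and 4 for FK866 plus succinate over Control (6.06%, beside 9%). Their median log2 changes were −0.01, −0.01 and −0.01. The 9 further subunits of Polycomb repressive complex 2 had medians of −0.01, 0.07 and 0.00, and the 12 COMPASS and MLL partners 0.06, −0.03 and −0.01. Smyd4, a SET and MYND domain gene, had 2640 and 2780 bp with FK866 plus succinate, 2036 and 1977 bp with FK866, and 2490 and 2693 bp in Control, so only its FK866 libraries were low (log2 change −0.34 ± 0.08 for FK866 over Control, adjusted p = 0.838). Smyd5, of the same family, had 989 and 1227 bp with FK866 plus succinate, 995 and 961 bp with FK866, and 1481 and 2108 bp in Control, so both inhibitor-treated groups lay below Control (−0.60 ± 0.19 for FK866 plus succinate, adjusted p = 0.507; −0.74 ± 0.19 for FK866, adjusted p = 0.838). Wdr5, the COMPASS scaffold, had 3335 and 3378 bp with FK866 plus succinate, 2853 and 3373 bp with FK866, and 2002 and 2795 bp in Control (log2 change 0.47 ± 0.18 for FK866 plus succinate over Control, adjusted p = 0.555). Its partner Rbbp5 went the other way, with 1610 and 1610 bp, 1683 and 2074 bp, and 2356 and 2095 bp in that order. The log2 change for FK866 plus succinate over Control was −0.42 ± 0.13 (limma adjusted p = 0.493). In that comparison 6 of the 12 COMPASS and MLL partners were higher and 6 lower. For FK866 plus succinate over FK866 the changes of the 66 genes ran from −0.51 (Smyd2) to 0.59 (Prmt7).

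The libraries held 40320 to 56361 peaks on the 21 chromosomes used, covering 39.0 to 43.8 Mb. The numbers of peaks were 45446 and 56361 for FK866 plus succinate, 40320 and 43468 for FK866, and 50489 and 41023 for Control. At the 43 genes there were 173 and 240 peaks with FK866 plus succinate, 153 and 164 with FK866, and 190 and 152 in Control. Those with a deposited adjusted p of 0.05 or more numbered 85 and 133 with FK866 plus succinate, 53 and 68 with FK866, and 96 and 54 in Control. The number of peaks in a library moves with these counts, and its part in the differences above was not tested. Markers of ILC2s, such as Gata3 and Il1rl1, were covered in all 6 libraries for 12 of 12 genes, with a summed length of 84.7 to 84.9 kb with FK866 plus succinate, 82.0 to 88.4 kb with FK866 and 87.2 to 92.3 kb in Control. For 4 myeloid markers it was 0.765 to 1.11 kb with FK866 plus succinate, 0 to 0.525 kb with FK866 and 0.537 to 0.618 kb in Control. For 6 T cell markers it was 6.08 to 8.86 kb with FK866 plus succinate, 6.77 to 10.1 kb with FK866 and 6.43 to 7.97 kb in Control, with Cd8a at 0 in every library but Cd3d and Cd4 covered in all 6, their strongest sites at percentiles of 77.8 and 80.2 beside a median of 78.5 for the ILC2 markers. For 4 B cell, 4 epithelial and 5 ILC3 and ILC1 markers the sums lay between 3.33 and 7.25 kb, with Ms4a1, Il23r and Ncr1 at 0 throughout and Pax5 and Epcam covered in all 6 libraries, at percentiles of 64.2 and 80.3. Their part in the results was not tested.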

How the data were processed

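Peak lists of 6 CUT&Tag libraries, 2 per group, were used as deposited. Per the submitters' processing notes the authors used cutadapt 1.9, Bowtie2 2.5.0 and the build mm10; the peak caller, its settings and any control library are named in none of the sources used here. In the deposited lists each peak has a score, a ratio (fold enrichment at the summit), −log10 of a p-value and −log10 of an adjusted p-value, for each library separately. The score is 10 times −log10 p for about 99.9% of peaks. No read counts were used here, so the depth behind a peak is unknown and no counting interval was computed.

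Peaks on the 21 chromosomes were joined where they overlapped or touched, and their length was summed over each protein-coding gene (RefSeq, GRCm38.p6) plus 2 kb. Group differences were tested with limma 3.58.1 in R 4.3.3 (eBayes with trend, 3 group means) on log2(bp + 200) over genes covered in at least 2 libraries, with Benjamini-Hochberg adjustment over all of them, so folds of little-covered genes are understated; the procedure was tested on simulated data. Ratios within libraries were compared by exact permutation. Merged regions were compared by presence, with 1 bp enough. The 43 genes and all lists were chosen with earlier results of these data known. All 43 may be named; values per library are given for the most and least covered of a role, for the 4 largest changes without overlap at a mean of 1000 bp or more in each comparison, for regions of 500 bp or more, and for a set list of well-known enzymes. Alternatives are given in the closing section.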

Additional observations from a re-analysis of the deposited data

How the results depend on the processing

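Among the 12 changes of single genes that were the largest of those whose groups did not overlap, 4 in each comparison, 181 of 192 alternative values kept their sign and none passed limma's threshold. In the 4-kb window at the strongest summit, the signs turned for Ash1l (0.60 percentage points, FK866 over Control), Kdm4a (−3.96 points, FK866 plus succinate over FK866; −2.69 points over Control), Kdm1b (−3.85 points, FK866 plus succinate over FK866) and Ehmt1 (−0.65 points, FK866 plus succinate over Control). With only peaks of adjusted p under 0.05 they turned for Phf2 (0.37, FK866 over Control), Kdm4a (−0.0919, FK866 plus succinate over FK866; −0.17 over Control) and Kdm1b (−0.12, FK866 plus succinate over FK866), and with lists of equal length for Kdm1b (−0.00913) and Kdm4a (−0.11 over Control). The median of the 43 genes in the 4-kb window was −1.51 points for FK866 plus succinate over FK866 and −1.28 over Control. The cause was not tested.

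Limma called 0 genes in each comparison under most alternatives. The exceptions, for FK866 over Control, FK866 plus succinate over FK866 and FK866 plus succinate over Control, were 26, 19 and 45 genes with no filter, 11, 11 and 24 on the percent of the interval, and, with peaks of adjusted p under 0.05, 0, 22 and 33; none was among the 43. With the replicate block the count was 0 in each comparison. The difference of replicate 1 minus replicate 2 in log2 covered length was correlated between groups over all genes tested. The values were 0.02 (FK866 plus succinate and FK866), −0.13 (FK866 plus succinate and Control) and −0.01 (FK866 and Control). The replicate numbers were therefore not taken as pairs.

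Regions lost with FK866 over Control numbered 3 where a peak had to cover 50% and 3 with lists of equal length, and 8 to 67 with 1 library left out. Those gained numbered 2 with peaks of adjusted p under 0.05 and 12 to 39 with 1 library left out. For FK866 plus succinate over FK866 the lost regions numbered 3 with peaks of adjusted p under 0.05 and 16 to 42 with 1 library left out, and the gained 3 with those peaks, 8 with lists of equal length and 20 to 116. For FK866 plus succinate over Control the lost numbered 9 to 48 with 1 library left out, and the gained 2 with peaks of adjusted p under 0.05, 4 with lists of equal length and 12 to 101. The ratio difference of FK866 over Control was −0.0106 with lists of equal length and −0.0308 to 0.0509 with 1 library left out. For FK866 plus succinate over FK866 it was −0.0584 to 0.0203 with 1 library left out. For FK866 plus succinate over Control it was 0.0140 with peaks of adjusted p under 0.05, 0.00313 without the 2-kb flanks, and −0.0499 to 0.0318 with 1 library left out.

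The settings for genes whose libraries lay apart were chosen after seeing the data. With peaks of adjusted p under 0.05 there were 10 higher for FK866 over Control (15.1% of all genes), 4 higher (8.05%) and 16 lower (33.2%) for FK866 plus succinate over FK866, and 16 lower (34.6%) over Control. With lists of equal length there were 2 higher for FK866 over Control (15.1%), and 1 higher (10.2%) and 13 lower (29.7%) for FK866 plus succinate over Control. Without FK866 plus succinate replicate 2 the lower genes were 14 (40.9%) and 22 (44.6%) and the higher genes 11 (29.5%) and 11 (24.2%) for its comparisons with FK866 and Control.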
